A study of Rattus norvegicus with 7 samples.

Results

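The regions described here are the peaks of the zinc finger protein YY1 in S16, a rat Schwann cell line, that share not even 1 bp with a peak of acetylated histone H3 lysine 27 (H3K27ac). They number 5259 of the 38704 YY1 peaks outside the mitochondrial genome, or 13.6% (95% Wilson interval 13.2 to 13.9%). The other 33445 YY1 peaks share at least 1 bp with an H3K27ac peak and are the group the 5259 are set beside. Below, acetylated means this overlap with a called H3K27ac peak, and non-acetylated means none. By midpoint, 6655 YY1 peaks lie outside H3K27ac. Whether non-acetylated peaks carry the mark below the calling threshold, which is unknown, was not measured here. The members were selected by the H3K27ac peak calls, so that this share, and every distance to H3K27ac given below, describes the selection or the same readout and is given with no test.

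The series holds 7 rat samples. YY1, the transcription factor TEAD1 and the nuclear receptors NR2F2 and RXRG were mapped in untreated S16 cells by CUT&RUN, a method that releases DNA around a bound protein with a nuclease brought there by an antibody. H3K27ac was mapped in untreated S16 cells by ChIP-seq. The lipid synthesis regulator SREBP1 was mapped by ChIP-seq in wild type sciatic nerve at postnatal day 15, labelled as Schwann cells. The nerve is a tissue and S16 a single line, so that a site shared between SREBP1 and an S16 list joins 2 different sources. The nerve input and any S16 control for CUT&RUN were not analysed here. Each target had 1 library, so that no replicate error and no test between conditions could be computed. Wilson intervals and order-statistic intervals of medians are at 95%, treat peaks as independent and cover counting error only. Peaks that lie close together are not independent. Read depth, the peak calling threshold and the height of each peak are unknown, since the lists hold positions on build rn5 (printed here counting from 1).

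YY1 binds a short motif built on the letters CCAT and can activate or repress transcription depending on its cofactors. It is found at many promoters and enhancers and can bring them together, and in Schwann cells it is needed for myelination. H3K27ac is laid down by the acetyltransferases CBP and p300 on nucleosomes beside active promoters and enhancers. The DNA where the factors themselves sit is often poor in nucleosomes, and so can carry a dip in the mark. TEAD1 is the DNA-binding partner of the Hippo pathway coactivators YAP and TAZ, which Schwann cells also need in order to myelinate. SREBP1 drives genes of fatty acid synthesis. NR2F2 is an orphan nuclear receptor, and RXRG is a retinoid X receptor that binds DNA as the partner of other nuclear receptors.

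Non-acetylated YY1 peaks were narrow. Their median width was 234 bp (232 to 236 bp), with a lower quartile of 199 bp and an upper quartile of 314 bp. Acetylated YY1 peaks had a median of 488 bp (483 to 492 bp), with quartiles of 302 and 709 bp. Both groups started at 178 bp, the narrowest width in the list, but none of the 5259 was 1000 bp wide or more (the widest had 989 bp), against 7.81% of the acetylated peaks. Only 102 non-acetylated peaks (1.94%) were over 600 bp, against 36.4% of the acetylated ones. Width itself enters the selection, because a wide peak reaches farther toward an H3K27ac peak than a narrow one with the same midpoint. The share of YY1 peaks that lay outside H3K27ac was 42.2% for widths of 178 to 199 bp, 22.1% for 250 to 299 bp, 6.67% for 400 to 599 bp and 1.06% for 600 to 999 bp. The distributions overlapped over the whole range of the members' widths, so that width alone does not divide the groups.

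**Figure D1:**
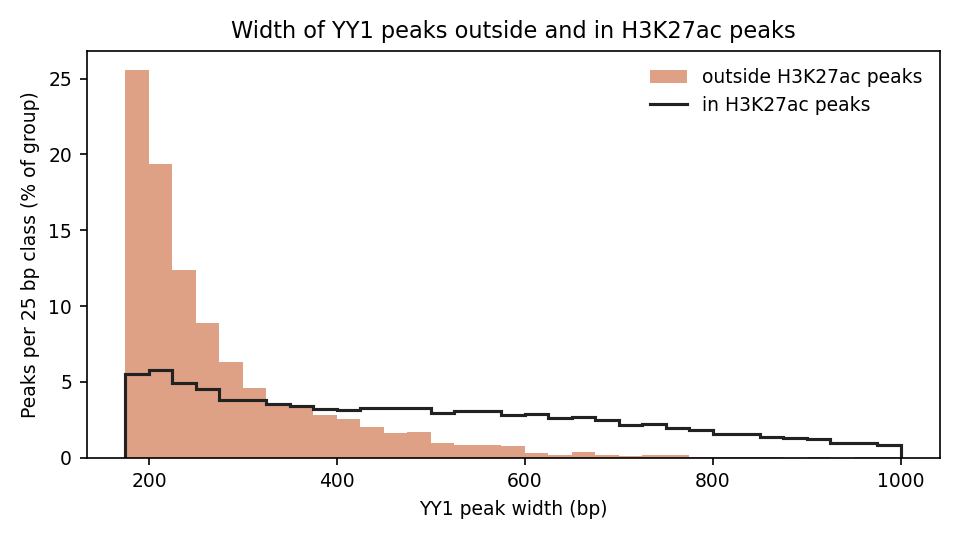
Width of YY1 peaks in classes of 25 bp, as a share of each group: the filled steps are the 5259 peaks outside H3K27ac and the line the 33445 peaks in H3K27ac, of which the 2612 of 1000 bp or more are not drawn. The non-acetylated peaks crowd at the narrow end (median 234 bp), whereas the acetylated ones spread out (median 488 bp).

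More than 1 in 2 non-acetylated YY1 peaks, 2807 or 53.4% (52.0 to 54.7%), met none of the 4 other factor lists, against 20.3% (19.9 to 20.8%) of acetylated ones. A further 1844 (35.1%) met exactly 1 list, 493 met 2, 109 met 3 and 6 met all 4. In acetylated chromatin 6.76% met all 4. TEAD1 was the most frequent partner. It lay at 1610 of the non-acetylated YY1 peaks, or 30.6% (29.4 to 31.9%), where the background over all YY1 peaks is 48.6% and the share in acetylated peaks 51.4% (50.9 to 52.0%). Nerve SREBP1 lay at 514, or 9.77% (9.0 to 10.6%), with a background of 29.5% and 32.6% in acetylated peaks. NR2F2 lay at 716, or 13.6% (12.7 to 14.6%), with a background of 38.7% and 42.7% in acetylated peaks. RXRG lay at 341, or 6.48% (5.85 to 7.18%), with a background of 29.3% and 32.9% in acetylated peaks. Every list was thus met less often outside H3K27ac, but by unequal amounts, and TEAD1 kept the highest share of its acetylated level.

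The part of peak width in these shares was not tested. When the acetylated YY1 peaks were weighted to the width classes of the non-acetylated ones, their TEAD1 share was 31.8%, close to the 30.6% found at the members. The same weighting left the acetylated shares well above the members' for the other lists, at 15.96% against 9.77% for SREBP1, 30.7% against 13.6% for NR2F2 and 23.3% against 6.48% for RXRG. Within single width classes the TEAD1 shares crossed. At 178 to 199 bp TEAD1 met 15.0% of non-acetylated peaks (13.2 to 17.0%) and 20.0% of acetylated ones (18.2 to 21.9%). At 300 to 399 bp the shares were 44.7% (41.2 to 48.3%) and 42.6% (41.2 to 44.0%), and these intervals overlap. At 400 to 599 bp non-acetylated peaks had the higher share, 62.0% (58.0 to 65.8%) against 53.0% (52.0 to 54.1%), and at 600 to 999 bp 77.7% (68.7 to 84.6%, 80 of 103) against 67.7% (66.8 to 68.6%). The other 3 factors were lower outside H3K27ac in each of the 6 width classes.

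NR2F2 met 13.2% of non-acetylated peaks of 178 to 199 bp and 12.5% of those of 400 to 599 bp, while it met 29.0% and 36.6% of acetylated peaks. RXRG met 6.03% (4.88 to 7.43%) and 3.54% (2.32 to 5.34%) of non-acetylated peaks in the same width classes, and 20.8% and 27.1% of acetylated ones. Outside H3K27ac its share was highest at 250 to 299 bp, with 7.65% (6.004 to 9.71%), and the interval there lies above that of 400 to 599 bp. SREBP1 met 6.18% and 17.2% of non-acetylated peaks and 8.97% and 31.8% of acetylated ones. These differences between slopes were not tested.

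**Figure D2:**
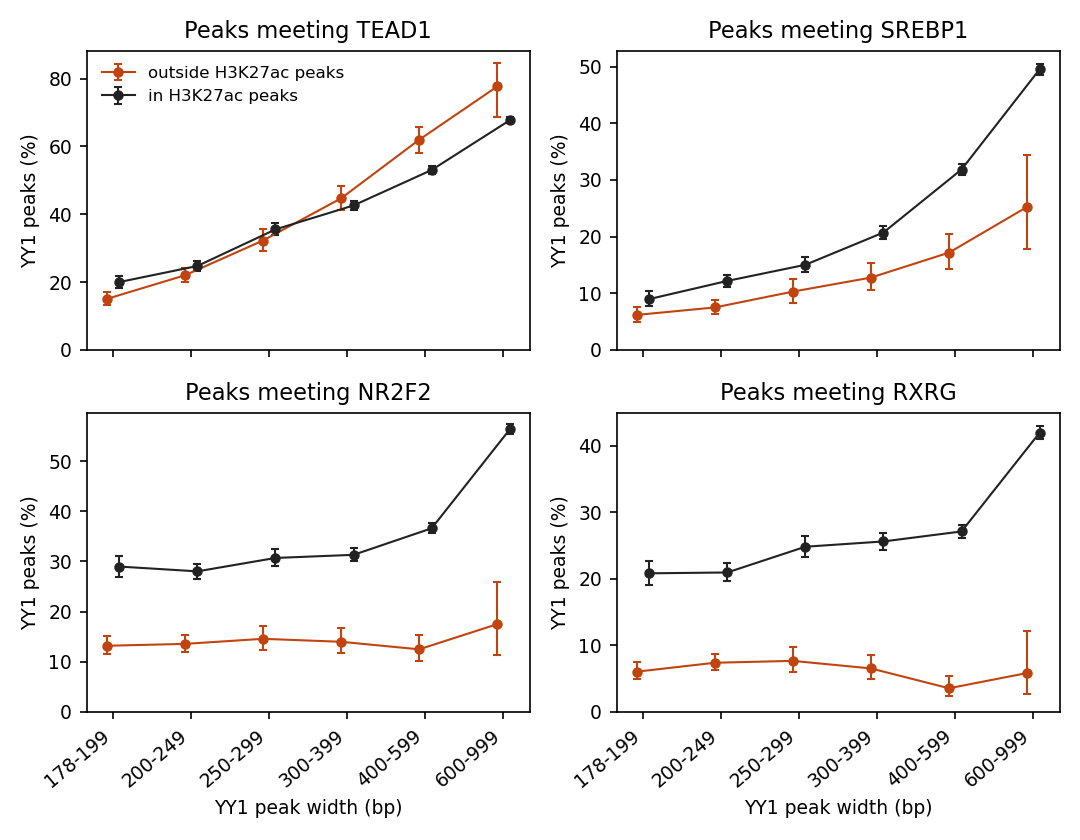
Share of YY1 peaks that meet TEAD1, SREBP1, NR2F2 or RXRG (1 panel each, with its own vertical scale) in 6 classes of YY1 peak width, outside (orange) and in (black) H3K27ac; bars are 95% Wilson intervals. For TEAD1 the lines cross between 250 to 299 and 300 to 399 bp, whereas for the other lists the non-acetylated peaks lie lower in every class.

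Non-acetylated YY1 peaks with TEAD1 were wider and lay closer to acetylated chromatin than those without. Their median width was 295 bp (285 to 305 bp) against 219 bp (217 to 222 bp) for the 3649 without TEAD1. With SREBP1 it was 271.5 bp (259 to 292 bp) against 231 bp (228 to 233 bp) for the 4745 without. For the nuclear receptors the medians were closer, at 238 bp with and 234 bp without NR2F2 and 229 bp with and 234 bp without RXRG, and in both pairs the intervals overlap. The upper quartile was 287 bp with and 316 bp without RXRG. At acetylated YY1 peaks all 4 lists went with width, for example 613 bp with and 418 bp without NR2F2.

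Divided by TEAD1 and SREBP1 together, the members fell into 4 classes. The largest, 3369 peaks (64.1%), had neither factor, a median width of 217 bp and a median distance of 4079 bp to the nearest H3K27ac peak (3832 to 4333 bp). TEAD1 alone of this pair lay at 1376 peaks, with a median width of 287 bp and a median distance of 1501 bp (1285 to 1715 bp). SREBP1 alone lay at 280, with 245.5 bp and 1613.5 bp (1198 to 2287 bp). Both lay at 234 peaks, which were the widest and the closest, with 334 bp and 463.5 bp (337 to 770 bp). Of these 234, 141 lay no more than 1 kb from an H3K27ac peak. Width increased and distance decreased from neither factor to both, with the classes of a single factor between them.

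SREBP1 was more frequent where TEAD1 was present: 14.5% (12.9 to 16.3%) of the members with TEAD1 had it, against 7.67% (6.85 to 8.58%) of those without. The order was the same among members no wider than their median (10.1% against 5.75%) and among wider ones (16.4% against 10.5%). It was also the same within 1 kb of H3K27ac (19.2%, 16.5 to 22.2%, against 13.4%, 11.3 to 15.8%) and beyond it (10.6% against 5.84%). At acetylated YY1 peaks the shares were 38.1% and 26.8%.

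NR2F2 and SREBP1 had opposite orders in the 2 groups of YY1 peaks. Outside H3K27ac, SREBP1 lay at 6.15% (4.61 to 8.15%) of the YY1 peaks with NR2F2 and at 10.3% (9.49 to 11.3%) of those without. In H3K27ac it lay at 39.1% (38.3 to 39.9%) of those with NR2F2 and at 27.8% (27.1 to 28.4%) of those without. Beyond 1 kb from H3K27ac the non-acetylated shares were 4.23% (2.86 to 6.21%) and 7.50% (6.62 to 8.49%). Within 1 kb they were 13.5% (8.92 to 20.0%, 20 of 148) and 16.2% (14.4 to 18.2%), whose intervals overlap. Among members no wider than their median, the SREBP1 shares with and without NR2F2 were 2.0% (0.972 to 4.07%, 7 of 350) and 7.22% (6.23 to 8.35%). Among wider members they were 10.1% (7.42 to 13.6%) and 13.6% (12.2 to 15.0%), whose intervals overlap. The acetylated shares were not divided by width, and acetylated YY1 peaks were wider with NR2F2 than without (613 against 418 bp). The difference between the groups was not tested.

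The receptors were often found together. RXRG met 28.2% (25.04 to 31.6%) of the members with NR2F2 and 3.06% (2.60 to 3.6%) of those without. In H3K27ac the values were 59.8% and 12.8%. TEAD1 also lay more often at members with NR2F2, at 38.0% (34.5 to 41.6%) against 29.5% (28.1 to 30.8%). TEAD1 and RXRG without NR2F2 and SREBP1 met at 3 peaks, whereas TEAD1, NR2F2 and RXRG without SREBP1 met at 78. TEAD1 alone was the most frequent combination with any partner, at 1134 peaks, followed by NR2F2 alone at 317, SREBP1 alone at 264 and TEAD1 with SREBP1 at 199.

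Few of the non-acetylated YY1 peaks sat in short gaps of acetylated chromatin. A gap is the stretch between the facing edges of neighbouring H3K27ac peaks, and short means at most 1 kb. Only 37 members, 0.704% (0.511 to 0.968%), lay in such a gap. The H3K27ac list itself limits this count, because its 99329 gaps on these chromosomes had a shortest length of 925 bp, with 0 of at most 500 bp. The sources used here do not say how nearby H3K27ac calls were joined. A dip in the mark narrower than 925 bp would therefore not appear as a gap, and a YY1 peak in it would count as acetylated. There were 897 short gaps, and 36 of them (4.01%) held a member, 1 holding 2. Another 112 short gaps were reached only by YY1 peaks that overlap an H3K27ac edge and so belong to the acetylated group.

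With gaps of up to 2 kb the count was 252 members (4.79%), and with gaps of up to 5 kb, a length added after the gap lengths were seen, it was 737 (14.0%). The median gap around a member was 19346 bp, against a median of 9056 bp over all gaps. A long gap has more room for peaks, so that the first median counts long gaps more heavily than the second. Gaps over 50 kb held 64.5% of the gap sequence and 28.0% of the members. Members were denser in short gaps. There were 42.9 members per Mb of gap sequence in gaps up to 1 kb, 19.8 in gaps of 1 to 2 kb, 7.71 in gaps of 2 to 5 kb, 2.97 in gaps of 10 to 50 kb and 0.814 in gaps over 50 kb. The sequence of the longest gaps includes any stretch in which no peak could be called. TEAD1 peaks were likewise denser in short gaps, with 68.4 per Mb up to 1 kb and 1.07 per Mb over 50 kb, and so were SREBP1 peaks, with 44.1 and 3.02 per Mb. For NR2F2 the densities were 15.1 and 4.15 per Mb, and for RXRG 19.7 and 6.04. RXRG had no steady course in between, with 11.9 per Mb at 1 to 2 kb and 18.2 at 5 to 10 kb.

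**Figure D3:**
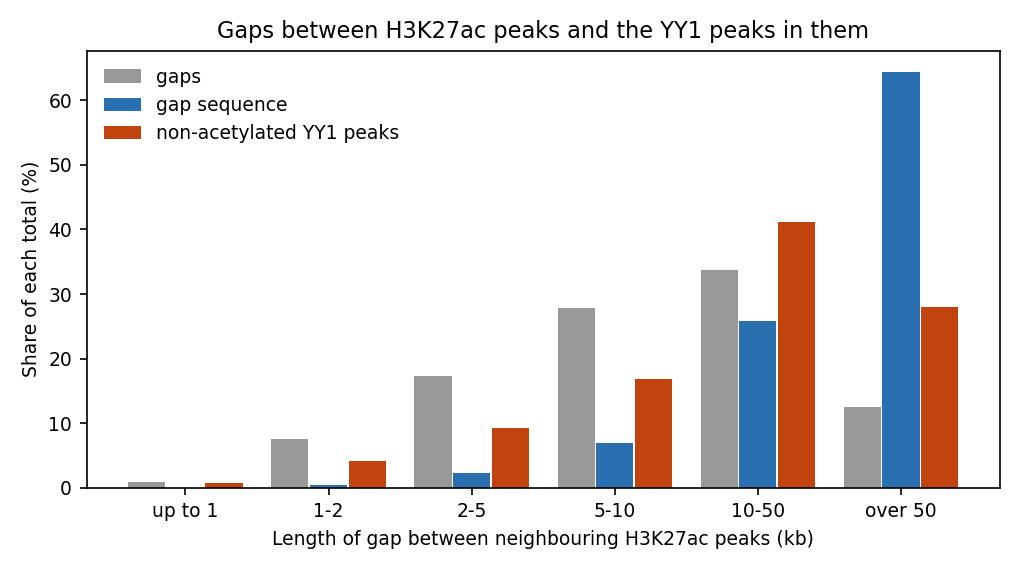
Gaps between neighbouring H3K27ac peaks in 6 classes of length (horizontal axis, kb), showing the share of all gaps (grey), of all gap sequence (blue) and of the non-acetylated YY1 peaks (orange) in each class. Gaps over 50 kb hold 64.5% of the sequence but 28.0% of the YY1 peaks, and gaps up to 1 kb hold 0.704% of the peaks.

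Of the other lists, the 37 members in short gaps met TEAD1 most often, at 23 of them or 62.2% (46.1 to 75.9%). SREBP1 was met by 10, or 27.03% (15.4 to 43.0%). Both intervals overlap those of the other members within 1 kb of H3K27ac, given below. NR2F2 lay at 2 and RXRG at 3, and 10 met no list. They were 183 to 566 bp wide and covered a median of 27.5% of their gap. Their nearer gap edge was 6 to 328 bp away (median 163 bp), and the farther edge a median of 478 bp. In gaps of up to 2 kb the TEAD1 share was 60.3% (152 of 252, 54.2 to 66.2%) and the SREBP1 share 18.3%. The widest member in a short gap was at chr4:145202876-145203441 (566 bp, in a gap of 981 bp, with TEAD1 only). The next were at chr5:168408955-168409453 (499 bp, gap of 992 bp) and chr14:32664809-32665264 (456 bp, gap of 966 bp), both with TEAD1 and SREBP1 and with neither receptor.

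Outside short gaps, 1589 members (30.2%) lay within 1 kb of an H3K27ac peak, 2275 (43.3%) at 1 to 10 kb and 1358 (25.8%) over 10 kb away. The median distance of all members was 3033 bp (2834 to 3240 bp), with quartiles of 599.5 and 10497 bp and a largest value of 307129 bp. TEAD1 lay at 44.9% (42.4 to 47.3%) of the members within 1 kb, at 23.3% (21.6 to 25.1%) of those at 1 to 10 kb and at 25.3% (23.0 to 27.6%) of those farther away. For SREBP1 the shares in this order were 15.7% (14.0 to 17.6%), 7.47% and 6.19%. NR2F2 had the opposite order, with 9.19% (7.86 to 10.7%), 14.4% (13.0 to 15.9%) and 17.7% (15.7 to 19.8%). So had RXRG, with 3.59% (2.78 to 4.62%), 7.25% (6.26 to 8.39%) and 8.54% (7.17 to 10.1%). For both receptors the intervals at 1 to 10 kb and over 10 kb overlap.

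In finer steps the TEAD1 share was highest in the step of 100 to 250 bp from H3K27ac. It was 44.0% (38.9 to 49.3%) up to 100 bp, 54.1% (49.4 to 58.8%) at 100 to 250 bp, 35.7% (31.3 to 40.3%) at 500 to 1000 bp and 20.7% (17.9 to 23.8%) at 2500 to 5000 bp. The intervals of the first and second steps just miss each other, and whether these steps differ was not tested. The interval of the step between 250 and 500 bp (47.2%, 42.4 to 51.9%) overlaps both. Beyond 2500 bp the share lay between 20.7% and 27.6% with no steady course. NR2F2 was lowest at 100 to 250 bp, with 6.32% (4.38 to 9.04%), and highest over 50000 bp, with 23.3% (18.8 to 28.6%). In the steps from 1000 to 50000 bp NR2F2 lay between 14.1% and 16.9% and RXRG between 6.81% and 7.98%, with no steady course. Over 50000 bp RXRG was at 13.6% (10.1 to 18.0%). In that outermost step of 287 peaks NR2F2 and TEAD1 (21.3%, 16.9 to 26.4%) did not differ beyond their intervals.

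**Figure D4:**
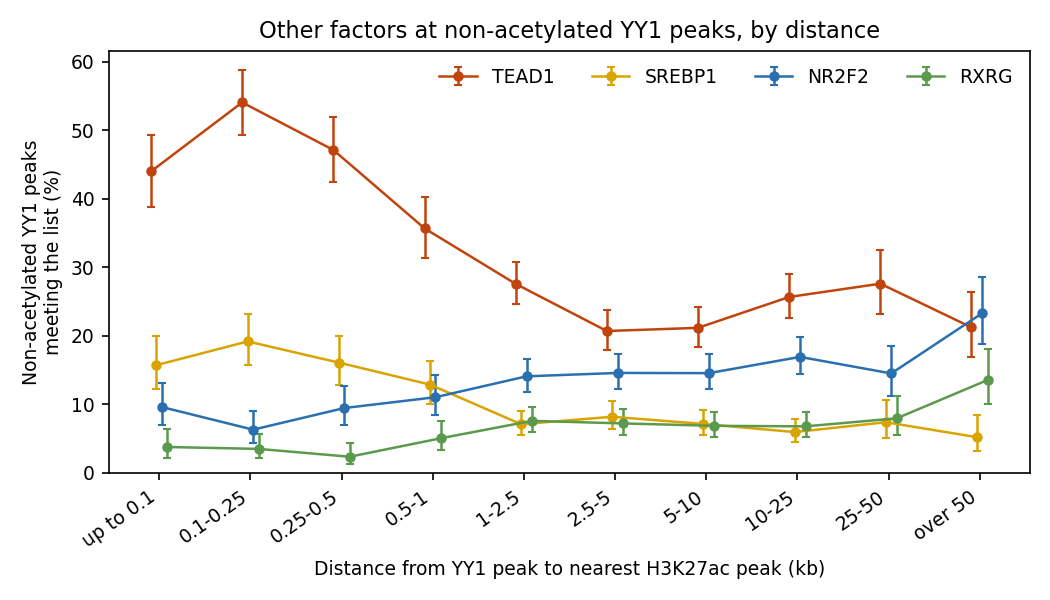
Share of the non-acetylated YY1 peaks that meet TEAD1, SREBP1, NR2F2 or RXRG, in 10 steps of distance to the nearest H3K27ac peak (horizontal axis, kb, steps of unequal size); bars are 95% Wilson intervals. TEAD1 is at 54.1% at 100 to 250 bp and at 20.7% at 2500 to 5000 bp, while NR2F2 is at 6.32% in the former and at 23.3% in the outermost step.

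Members near acetylated chromatin were also wider, with a median of 251 bp within 1 kb against 227 bp both at 1 to 10 kb and farther away. In each of 4 width classes the TEAD1 share within 1 kb, short gaps included, was above that beyond 1 kb. It was 26.9% (90 of 335) against 11.1% (112 of 1009) at 178 to 199 bp, and 67.7% (357 of 527) against 47.7% (373 of 782) at 315 to 989 bp. SREBP1 gave 10.7% against 4.66% and 22.2% against 12.5% in these classes. NR2F2 was lower within 1 kb in all 4 classes, with 9.25% against 14.5% and 11.8% against 15.0% in the narrowest and widest. Its intervals overlap in the narrowest and widest classes but not in those between.

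At the 1 bp threshold that selected the members, the values on either side were as follows. The 579 acetylated YY1 peaks that shared at most 100 bp with H3K27ac had a median width of 260 bp, and the 343 members within 100 bp of an H3K27ac edge also had 260 bp. TEAD1 met 36.1% of the former and 44.0% of the latter, and SREBP1 13.3% and 15.7%. Within 10 bp of the threshold there were 36 acetylated peaks, with a median width of 304 bp, 52.8% with TEAD1 and 38.9% with SREBP1. The 39 members within 10 bp of an H3K27ac edge had a median width of 256 bp, 38.5% with TEAD1 and 12.8% with SREBP1.

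The YY1 peaks were set beside the other factors' peaks outside H3K27ac. They were nearest to TEAD1 in median distance and in the share over 10 kb away. The median distance to H3K27ac was 3033 bp for YY1 and 2379 bp (2221 to 2567 bp) for the 6222 TEAD1 peaks. It was 5045 bp for the 14332 SREBP1 peaks, 6889 bp for the 25377 RXRG peaks and 8830 bp (8506 to 9200 bp) for the 14418 NR2F2 peaks. Over 10 kb away lay 25.8% of YY1, 25.6% of TEAD1, 36.1% of SREBP1, 41.9% of RXRG and 47.4% of NR2F2. The intervals of YY1 and TEAD1 overlap in that last share but not in the median. In the nearer classes TEAD1 was less like YY1. Within 1 kb, outside short gaps, lay 30.2% of YY1, 36.0% of TEAD1, 25.6% of SREBP1, 11.4% of RXRG and 10.6% of NR2F2. At 1 to 10 kb lay 43.3% of YY1, 42.0% of NR2F2, 46.6% of RXRG, 38.0% of SREBP1 and 37.5% of TEAD1. These lists share sites, since 1534 of the 6222 TEAD1 peaks met a member. Members without TEAD1 had a median distance of 4079 bp where SREBP1 was also absent (3369 peaks) and 1613.5 bp where it was present (280 peaks). The part of the shared sites in the likeness to TEAD1 was not tested.

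**Figure D5:**
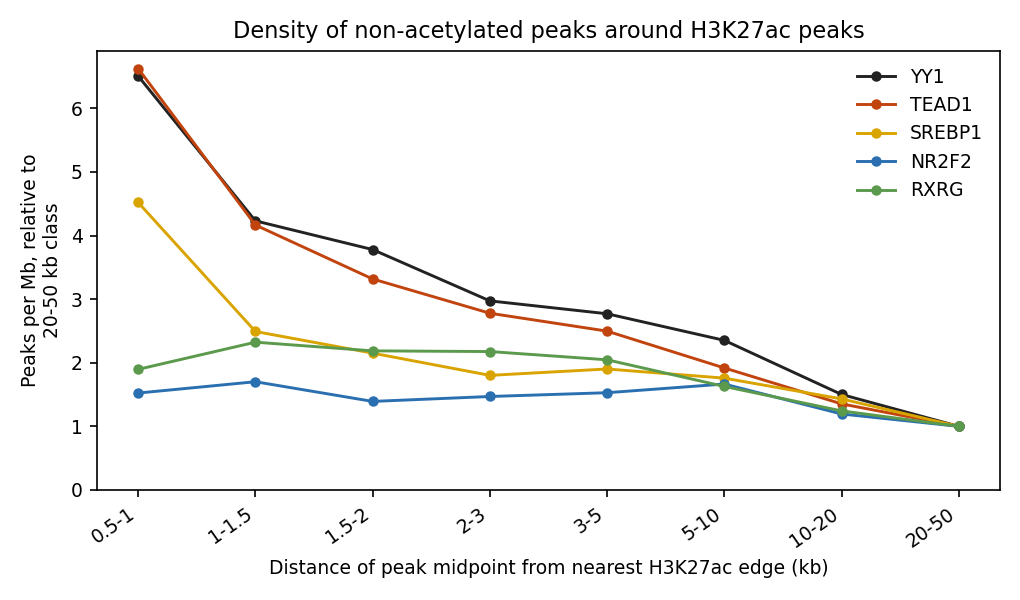
Density of peak midpoints outside H3K27ac (peaks per Mb of sequence at that distance, divided by the density at 20 to 50 kb) against distance from the nearest H3K27ac edge in 8 steps, for the 5 factor lists. YY1 and TEAD1 run close together, at 6.51 and 6.62 times in the first step of 0.5 to 1 kb, SREBP1 starts at 4.52 times, and NR2F2 and RXRG at 1.52 and 1.90 times.

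The density of midpoints gives the placement with the amount of sequence taken into account. At 500 to 1000 bp from an H3K27ac edge there were 6.01 non-acetylated YY1 peaks per Mb, at 2000 to 3000 bp 2.74 and at 20000 to 50000 bp 0.923. The ratio of the first to the last was 6.51 for YY1, 6.62 for TEAD1, 4.52 for SREBP1, 1.90 for RXRG and 1.52 for NR2F2. Sites shared by YY1 and TEAD1 count in the ratios of both. Distances under 500 bp were left out, since a peak outside H3K27ac cannot have its midpoint close to the edge.

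Seen from the other lists, TEAD1 had the largest share of peaks outside H3K27ac that met a member. Of the 6222 TEAD1 peaks outside H3K27ac, 1534 (24.7%, 23.6 to 25.7%) met a member. So did 687 of 14418 NR2F2 peaks (4.76%), 444 of 14332 SREBP1 (3.10%) and 333 of 25377 RXRG (1.31%) outside H3K27ac. The lists differ in size, and the part of size in these shares was not tested. The share over all peaks of each list is not given here, so that these shares have no background. The TEAD1 peaks that met a member were wider, with a median of 294 bp against 208 bp for the rest. For NR2F2 the medians were 298 and 247 bp.

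Where TEAD1 and YY1 met outside H3K27ac, their peaks lay nearly on top of each other. The midpoints were a median of 51 bp apart, 49.6% were within 50 bp, and TEAD1 covered a median of 81.9% of the YY1 peak. At acetylated YY1 peaks the midpoints were 78.5 bp apart and TEAD1 covered 61.2%. These are also the wider peaks (median 596.5 bp against 295 bp), and the part of width in the offset was not tested. NR2F2 midpoints lay 47.5 bp, RXRG midpoints 69.5 bp and those of SREBP1, whose peaks all have the same width, 173.5 bp from the YY1 midpoint at the members. The TEAD1 peak at a member itself touched H3K27ac in 74 of 1610 cases (4.60%, 3.68 to 5.73%), and the SREBP1 peak in 69 of 514 (13.4%, 10.7 to 16.6%). Where a member met TEAD1 or SREBP1, that peak thus mostly lay outside H3K27ac as well. Members that did not meet TEAD1 seldom had it nearby: 152 of 3649 (4.17%) had a TEAD1 peak within 1 kb.

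The widest members were mostly TEAD1 sites. The widest of all was at chr1:146927813-146928801 (989 bp), 251 bp from H3K27ac, with TEAD1 and no other factor. The next, at chr2:65041678-65042659 (982 bp), carried TEAD1 and SREBP1 and lay in a gap of 1381 bp, 67 bp from one edge and 332 bp from the other. At chr1:62476604-62477566 (963 bp) SREBP1 was the sole partner, 85 bp from H3K27ac. Over 10 kb from acetylated chromatin the widest were at chr2:3947083-3948038 (956 bp, 41138 bp away, with TEAD1) and chr2:133949131-133950012 (882 bp, 22657 bp away, with TEAD1 and SREBP1). Those farthest from H3K27ac that still met TEAD1 were at chr2:265939395-265939656 (262 bp wide, 233999 bp away) and chr15:66084921-66085313 (393 bp wide, 224124 bp away).

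Wide peaks without any partner were rarer. The widest was at chr7:120063136-120064043 (908 bp, 364 bp from H3K27ac), followed by chr20:30968118-30968914 (797 bp, 11730 bp away). Of the 6 members that met all 4 other lists, the widest was at chr14:95485628-95486447 (820 bp), 72708 bp from the nearest H3K27ac peak. That site was picked out after its values were seen. Positions are given without genes or sequence, since no annotation or genome of build rn5 was used here.

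The share of YY1 peaks outside H3K27ac varied moderately between chromosomes, from 9.38% (102 of 1088) on chromosome 12 to 18.6% (372 of 1996) on chromosome 9, with 16.5% on chromosome 7 and 11.0% on the X. TEAD1 met between 19.6% of the members (chromosome 12) and 41.2% (chromosome 14), and SREBP1 between 6.02% (chromosome 7) and 13.9% (chromosome 20). The median width differed little, from 223 bp on chromosome 11 to 251 bp on chromosome 20. Chromosome X had the highest share of members over 10 kb from H3K27ac, 42 of 97 (43.3%), and chromosome 12 the lowest, 17 of 102 (16.7%). H3K27ac peaks numbered 2257 on the X and 2670 on chromosome 12, and the part of their density in these shares was not tested. Members numbered only 148 on chromosome 14 and 108 on chromosome 20, and no intervals are given for single chromosomes.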

How the data were processed

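The deposited files are peak lists with chromosome, start and end, and that of SREBP1 also has a name, score and strand for each peak. Per the submitters' processing notes, the build was rn5 and the tools were MACS2, Bowtie2, deepTools, bedtools and bcl2fastq 2.20.0.422. The sources used here do not give their roles, settings, thresholds or controls. The deposited score of the SREBP1 list is the same in every peak and was not used. Peaks were read as deposited, and those on the mitochondrial genome or on sequence outside chromosomes 1 to 20 and X were left out. Lists met where at least 1 bp overlapped. Shares have Wilson intervals and medians order-statistic intervals, at 95%. No test was made, since each target has 1 library. Width weighting used 6 classes. The overlap scripts were tested on simulated data. Named regions are the widest of each placement class, of those with TEAD1 and SREBP1 and of those with no partner, and the farthest with TEAD1. The members, lists and alternatives were chosen with earlier results of these data known. Gene and promoter tables at hand are of another build and were not used. Python 3.11.15, NumPy 2.4.6, pandas 2.3.3, SciPy 1.17.1 and Matplotlib 3.10.9 were used.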

Additional observations from a re-analysis of the deposited data

Results flagged for a closer look

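The YY1 list also held 9 peaks on the mitochondrial genome, which were left out of every value above. They were singled out because they lay in data outside the comparisons and numbered more than 3, the floor used for flagging. That floor is not a test, and whether these peaks exceed background was not tested. Of these, 5 met no H3K27ac peak.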

How the results depend on the processing

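The 7 main values were recomputed under 30 alternatives, of which 11 stayed within the counting interval of the original and 19 moved out of it. Restriction to placed chromosomes could change nothing, since the YY1 list holds no other nuclear sequence. The 11 include this restriction for each of the 7 values. The rest of the 11 were all TEAD1 or SREBP1 shares in short gaps, where few peaks make the intervals wide. The share of YY1 peaks outside H3K27ac, 13.6%, was 16.8% when at least 50% of the shorter peak had to be shared, 17.2% by the YY1 midpoint, 10.5% with H3K27ac extended by 500 bp and 2.55% among YY1 peaks wider than the list's median of 439 bp. For these alternatives in the same order, the TEAD1 share of members (30.6%) was 28.8%, 26.98%, 25.3% and 66.3%, and the SREBP1 share (9.77%) was 6.75%, 6.69%, 7.62% and 17.9%. There the first pair of alternatives redefines the overlap with the partner. The share in short gaps (0.704%) was 4.79% at 2 kb, 14.0% at 5 kb and 1.02% among wider peaks. The median width (234 bp) was 228 bp with H3K27ac extended and 250 bp by the midpoint. In short gaps the TEAD1 share (62.2%) was 100% among wider peaks, of which there were 5, and the SREBP1 share (27.03%) was 14.7% at 5 kb. The 5 kb gap was added after the data were seen. Gaps of at most 500 bp gave no value, because the list holds none. No paired analysis was possible because each target has 1 library. Peak calls depend on depth, which is unknown, and its effect was not tested.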

Other observations

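SREBP1 peak names end in numbers, whose meaning the sources used here do not state. Ranked within its chromosome, from 0% for the lowest number to 100% for the highest, the 513 SREBP1 peaks at non-acetylated YY1 peaks had a median rank of 51.1% (95% order-statistic interval 44.0 to 54.7%). The 10814 at acetylated YY1 peaks had 23.4% (22.8 to 23.98%), and the 13563 outside H3K27ac without YY1 had 66.9% (66.3 to 67.5%). Among the 513, those at members within 1 kb of H3K27ac had 42.6% (38.8 to 49.4%) and those at members farther away 57.5% (53.4 to 61.3%). At 69 of 514 members the SREBP1 peak itself touched H3K27ac, and these were not set apart.

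The H3K27ac peaks beside members (1626 members no more than 1 kb away) held a YY1 peak of their own in 23.8% of cases (21.8 to 25.9%), against 30.9% of all H3K27ac peaks. TEAD1 was in 17.4% of them against 19.0% of all, and NR2F2 in 17.0% against 25.5%. They were similar in width, with a median of 698.5 bp against 737 bp. These shares can include a partner peak that meets both the member and H3K27ac, of which there were 74 cases for TEAD1 and 28 for NR2F2.

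The nearest other YY1 peak was for a member a median of 13655 bp away (12944 to 14467 bp), against 10371 bp (10162 to 10568 bp) for acetylated YY1 peaks. It was within 1 kb for 407 members (7.74%), and it was itself non-acetylated for 950 (18.1%), against 12.4% of acetylated YY1 peaks. These differences were not tested.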
